A study of Mus musculus with 34 samples.

Results

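Oxidative phosphorylation (OXPHOS) is carried out by 5 protein complexes of the mitochondrial inner membrane, and most of their subunits are encoded in the nucleus. The subunits described here are the genes whose symbols start with Ndufa, Ndufb, Ndufc, Ndufs or Ndufv (complex I), Sdha to Sdhd (complex II), Uqcr (complex III), Cox4 to Cox8 (complex IV) or Atp5 (complex V), without assembly factors of the Ndufaf and Sdhaf families, pseudogenes and Gm names. A gene was kept in a table if it reached a CPM (counts scaled to a common library total) of 1 in 2 or more of its libraries. The rule uses names and a minimum level, and no comparison. It gave 83 genes of 54538 symbols listed in any of the 5 tables: 38 of complex I, 4 of complex II, 8 of complex III, 16 of complex IV and 17 of complex V. Of these, 77 were kept in all 5 tables.

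Complexes I and II pass electrons from NADH and succinate to ubiquinone, complex III passes them on to cytochrome c, and complex IV hands them to oxygen. Complexes I, III and IV pump protons out of the matrix as they do so, and complex V, the ATP synthase, makes ATP as the protons flow back. Parvalbumin (PV) interneurons fire fast and for long periods, are rich in mitochondria and are known for a high energy demand. Somatostatin (SST) interneurons, which mostly target dendrites, fire at lower rates.

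The data are RiboTag RNA-seq: Cre recombinase switches on an HA tag on the ribosomal protein Rpl22, and mRNA bound to tagged ribosomes is pulled down. Cre from the Pvalb gene marks PV cells and Cre from the Sst gene marks SST cells, so a library holds whatever cells express that Cre, and PV and SST below name the Cre line. All mice were on a C57/BL6 background and were taken at postnatal day 60, and all carried the Ribotag allele. The tissue label names cortex and hippocampus, while the extraction text speaks of cortices. PV:Cre/Ribotag mice received saline (n = 3) or pentylenetetrazol (PTZ, a GABA receptor antagonist; n = 4) in batch 1 and saline (n = 2) in batch 2. In batch 3 they stayed in the home cage (n = 3) or went through contextual fear conditioning with foot shocks (CFC; n = 3), beside home cage PV:Cre/Nr4a1-f/f/Ribotag mice, labelled Nr4a1 cKO (n = 3). Sst:Cre/Ribotag mice received saline (n = 4) or PTZ (n = 3) in batch 2 and were in the home cage (n = 3) or CFC group (n = 3) in batch 4. Home cage Sst:Cre/Nr4a1-f/f/Ribotag mice, labelled Nr4a1 cKO (n = 3), form batch 5. The study asked which genes of PV and SST cells answer to learning, set beside the general excitation by PTZ, and profiled the same cells with Nr4a1 deleted. Nothing in the labels ties a library to an animal of its own, so the spread that the p-values rest on is that between libraries and may be technical.

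Libraries held between 4933110 and 27282912 counts, the shallowest being both PV saline libraries of batch 2. Sst was at 1746 to 6080 CPM in all SST libraries, but PV libraries were not uniform in Pvalb. SST libraries also held Pvalb, at 87.7 to 477 CPM in batch 4 and 90.7 to 201 CPM in batch 5. In PV saline libraries of batch 1, Pvalb was at 15.7 to 22.1 CPM, below Sst at 37.9 to 61.8 CPM, and PTZ libraries held 40.1 to 128 CPM. Batch 3 had Pvalb at 145 to 188 CPM in home cage and CFC libraries and at 1061, 1352 and 157 CPM in the libraries labelled Nr4a1 cKO. Nr4a1 itself was not lower under that label: it was at 5.08, 7.35 and 11.3 CPM in PV home cage libraries and at 6.73, 16.5 and 7.69 CPM in PV libraries labelled Nr4a1 cKO. In SST it was at 23.4, 15.2 and 13.8 CPM in home cage libraries and at 14.8, 11.4 and 17.7 CPM under the label. Counts over the whole gene do not check a deletion of some exons. Levels below are CPM after TMM scaling (a scaling of library totals) within a batch, unless another scaling is named, and fold changes are log2 values ± SE from edgeR's quasi-likelihood test over all genes. A gene is said to have risen or fallen, or to be called, where the Benjamini-Hochberg adjusted p was under 0.05.

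The subunits together took a share of the counts that differed most between batches and Cre lines. In batch 2, the only table with both lines, they made up 1.46% and 1.25% of counts in PV after saline and 0.660%, 0.546%, 0.524% and 0.622% in the SST saline libraries. Each PV library there was above every SST library. In batch 3 the PV home cage libraries had 5.94%, 7.12% and 8.18%, the CFC libraries 5.58%, 5.17% and 5.30%, and the libraries labelled Nr4a1 cKO 4.91%, 5.90% and 6.30%. SST libraries had 3.00% to 3.67% in batch 4 and 2.60% to 2.62% in batch 5. PV libraries of batch 1 had 0.560% to 1.03%. Levels therefore cannot be set side by side across batches as if they came from 1 experiment.

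**Figure D1:**
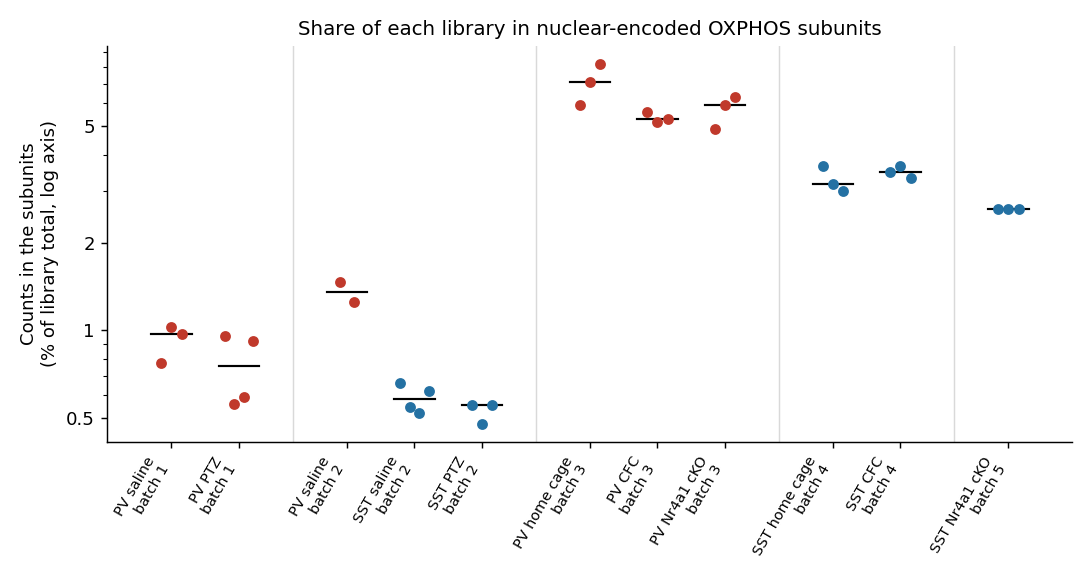
Share of each library's counts that fell in the nuclear-encoded OXPHOS subunits (percent of the library total, log axis), by group. Each point is a library, red for PV and blue for SST, bars are group medians, and grey lines part the batches. PV libraries sit above SST libraries within batch 2, and PV home cage replicate 3 of batch 3 is the highest at 8.18%.

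The make-up of that share also differed by batch. Complex V held 58.5% to 66.8% of the subunits' counts in batch 1 and 44.3% to 68.8% in batch 2, but 29.4% to 39.3% in batches 3 to 5. Much of this came from Atp5b, the catalytic beta subunit of the ATP synthase. It alone held 30.8% to 44.6% in batch 1 and 41.2% to 50.1% in the SST libraries of batch 2, against 6.08% to 16.3% in batches 3 to 5. In the PV libraries of batch 2 Atp5b held 14.3% and 18.2%, so its share also differed between the lines within that batch. Complex I held 29.7% to 34.2% in batches 3 to 5 and 14.6% to 25.0% in batches 1 and 2. Complex II, whose 4 subunits also work in the tricarboxylic acid cycle, held 2.76% to 7.67% across all batches. These are shares of counts, which favour long transcripts.

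Per kilobase of transcript, a few subunits led their complex in most groups. Ndufa4, which was first described in complex I and is also found in complex IV, was the highest of the complex I names in every group, with a mean of 4046 CPM per kb in PV home cage libraries and 1546 in SST home cage libraries. Sdhb, the iron-sulfur subunit, led complex II in batches 3 to 5, and Sdha, the flavoprotein, led it in batches 1 and 2. Uqcrq, a small subunit of complex III, led in batches 3 and 4 (2614 CPM per kb in PV home cage). Cox4i1, the largest nuclear-encoded subunit of complex IV, led that complex in SST libraries of batches 4 and 5, and Cox6b1 led it in PV home cage libraries with 4390 CPM per kb. In complex V, Atp5b led every group but PV home cage, where Atp5g3, which encodes the membrane ring subunit c, was at 3721 CPM per kb.

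The gene Atp5l of the synthase's membrane part was at mean levels of 34.9 to 172 CPM per kb in batches 1 and 2 and at 2.62 to 6.18 CPM per kb in batches 3 to 5. Atp5l has near-identical copies, so reads of its transcripts may have been left uncounted or split, and its level is uncertain. Among rare paralogues, Cox4i2 of complex IV and the Ndufa4 paralogue Ndufa4l2 were near the minimum level where they were kept at all. Of complex IV, Cox7a1 (heart and muscle form) and Cox8b (muscle form) reached 17.2 and 35.6 CPM in PV home cage replicate 3 of batch 3. Cox4i2 was kept in batch 4 only, Cox6b2 in batch 5 only, Cox8b in batch 3 only, Cox7a1 in batches 3 to 5, and Ndufa4l2 in batches 3 and 4. Cox8c had 0 counts in each library of the 4 tables that list it, and Cox7b2 (a testis form) had at most 26 counts, so neither was kept.

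Paralogue pairs gave a value that does not depend on how much of a library the subunits fill. Cox6a1 and Cox6a2 are the common and the muscle form of subunit VIa of complex IV, and Cox6a2 is known in fast-spiking interneurons. Per transcript length, Cox6a2 made up 25.9% and 36.2% of the pair in both PV libraries of batch 2 and 1.07% to 2.42% in the 4 SST saline libraries beside them. It made up 28.3% to 33.2% in all 9 PV libraries of batch 3, with group medians of 31.9% in home cage, 30.8% after CFC and 30.2% under the Nr4a1 cKO label, so these groups overlapped. In SST libraries of batch 4 it made up 5.06% to 6.72% and in batch 5 7.27% to 7.74%. PV libraries of batch 1, where Pvalb was low, had 12.7% to 14.6% in saline and 7.25% to 12.6% after PTZ. These groups did not overlap, but their nearest values were 12.7% and 12.6%, and the levels of Cox6a2 itself overlapped.

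**Figure D2:**
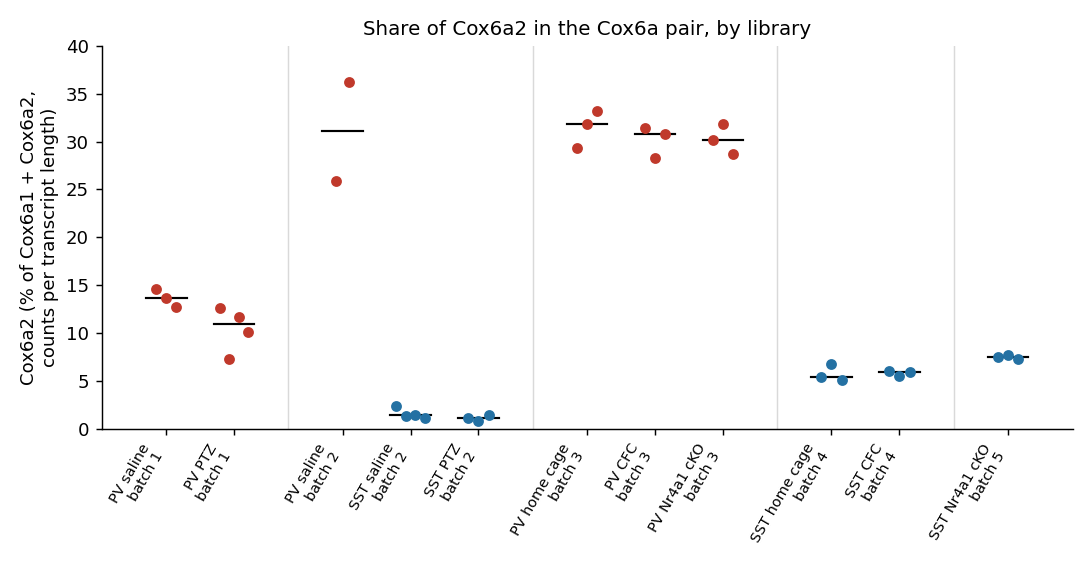
Share of Cox6a2 in the Cox6a1 and Cox6a2 pair (percent, counts divided by transcript length), by group. Each point is a library, red for PV and blue for SST, and bars are group medians. PV libraries of batches 2 and 3 lie between 25.9% and 36.2%, PV libraries of batch 1 between 7.25% and 14.6%, and SST libraries below 8%.

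Cox8b, the muscle form of subunit VIII, made up 0.761% to 1.84% of the Cox8a and Cox8b pair in PV libraries of batch 3. It passed the minimum level in that batch only, and was at 0.149% to 1.15% in PV libraries of batch 1 and 0.0528% to 0.269% in SST libraries of batch 4, and these last ranges overlap. Per transcript length, Atp5g3 made up 78.5% and 88.1% of the 3 genes for subunit c in the PV saline libraries within batch 2. In the SST saline libraries it made up 63.5% to 69.5%, without overlap. These shares rest on a length of 2675.5 bases for Atp5g1. In mean CPM, Atp5g1 was above Atp5g3 in the SST saline libraries (83.6 against 60.4) and below it in the PV ones (200 against 413). For Atp5g3, the shares in the other batches were as follows. It made up 86.5% to 88.2% in PV libraries of batch 3, 84.4% to 86.1% in SST libraries of batch 4 and 89.7% to 90.1% in batch 5. Cox7a1 made up at most 1.55% of the Cox7a1 and Cox7a2 pair in batches 3 to 5.

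SST and PV cells were compared within batch 2, in saline. Of 78 subunits tested, 75 were lower in SST than in PV and 1 was higher, while 27.1% of all 11784 genes tested were called lower and 26.0% higher. The median of the subunits was -2.22, against 0.01 over all genes. Cox6a2 was at 97.4 and 116 CPM in PV libraries and at 1.63, 0.559, 0.666 and 0.745 CPM in SST libraries, with no overlap, a difference of -6.87 ± 0.32 (edgeR adjusted p = 2.88e-08). It passed the minimum level in batch 2 only through the PV libraries, and the SST saline libraries held 27, 9, 9 and 14 counts of it. Pvalb was at 362 and 243 CPM in the same PV libraries and at 6.22 to 12.0 CPM in the SST saline libraries. In such bulk libraries, fewer cells of a type and less RNA per cell cannot be told apart.

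The difference held in each complex. In complex I, 36 of 37 subunits were lower, with a median of -2.34. Ndufv1, the NADH-binding flavoprotein, was at 158 and 151 CPM in PV and at 36.7 to 43.9 CPM in SST (-1.95 ± 0.13, adjusted p = 3.81e-07 by edgeR), and Ndufs1, the large iron-sulfur subunit, differed less (-0.67 ± 0.11). Ndufa8, an accessory subunit, differed by -3.02 ± 0.22 and Ndufs3, a core subunit, by -2.53 ± 0.18. The 1 that was not called was Ndufs5, at 28.0 and 3.21 CPM in PV and at 6.29 to 14.9 CPM in SST (-0.67 ± 0.57, adjusted p = 0.342). The PV libraries differed so much in Ndufs5 that its value was 1.63 without PV replicate 1 and -1.47 without PV replicate 2. All 4 subunits of complex II were lower (median -1.66), among them Sdhb at -1.88 ± 0.16 and the long transcript Sdha at -0.53 ± 0.10.

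In complex III all 8 subunits were lower (median -2.02). Uqcr11, the smallest subunit of that complex, was at 72.6 and 42.1 CPM in PV and at 1.92 to 5.38 CPM in SST, a difference of -4.02 ± 0.35. The core protein Uqcrc1 differed by -1.45 ± 0.12 and the Rieske iron-sulfur protein Uqcrfs1 by -1.59 ± 0.15. All 12 subunits of complex IV were lower, and its median of -2.66 was the most negative of the 5. Beside Cox6a2 these included Cox4i1 at -3.10 ± 0.24, Cox5a at -2.61 ± 0.24 and Cox6a1 at -2.12 ± 0.21.

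Complex V had 15 of 17 subunits lower (median -1.73). Atp5a1, the alpha subunit of the catalytic head, differed by -1.76 ± 0.13, Atp5h of the peripheral stalk by -2.75 ± 0.19 and Atp5g3 by -2.77 ± 0.20. Atp5b, the partner of Atp5a1 in the catalytic head, went the other way: it was at 1953 and 2402 CPM in PV and at 2626, 2630, 2596 and 2907 CPM in SST, a difference of 0.30 ± 0.11 (edgeR adjusted p = 0.0413). That call did not pass without any 1 of the 4 SST libraries or without PV replicate 1 (adjusted p = 0.0538 to 0.298 for Atp5b), nor with the replicate block (0.24, adjusted p = 0.167) or with the compared groups only (adjusted p = 0.0713). Atp5s, a factor of the synthase now named Dmac2l, did not pass (0.06 ± 0.22).

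Short transcripts had lower values in SST libraries of batch 2 whether or not they encode subunits. Among all genes under 700 bases, the median was -1.71, and the 34 subunits of that length had a median of -2.75. Among genes of 1500 bases or more the median was 0.12, and the 16 subunits of that length had a median of -1.21, with 14 of 16 lower in value. With each library's trend on transcript length taken out as an offset, the subunits' median was -1.10 and 66 of 77 with a known length were called lower, beside 26.3% of all genes. Depth also differed, since the PV libraries held 4933110 and 6161764 counts and the SST saline libraries at least 13763931. The part of depth and RNA quality in these differences was not tested.

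Among other gene lists in this comparison, to be read against the 27.1% of all genes called lower and 26.0% called higher, 58 of 77 mitochondrial ribosomal proteins were called lower and 1 higher (median -1.36), as were 74 of 80 cytosolic ribosomal proteins, with 1 higher (median -1.60). Of 43 assembly factors 22 were lower and 2 higher (median -0.75), and of 17 genes of the tricarboxylic acid cycle 11 were lower (median -0.65). Of 15 regulators 8 were lower and 5 higher (median -0.60). The 3 with the smallest p were the nuclear receptors Esrra (-3.25 ± 0.22) and Esrrg (-2.35 ± 0.17), which drive genes of energy metabolism, and Atpif1 (-2.67 ± 0.22), the inhibitor of the ATP synthase, and they were lower in SST.

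The home cage libraries of batch 4 (SST) and batch 3 (PV) gave a second comparison of the lines, in which batch and line cannot be told apart. Pvalb was at 477, 189 and 87.7 CPM in these SST libraries. It thus did not part them from the PV home cage libraries, whose Pvalb levels are given above. Of 81 subunits tested, 77 were lower in SST and 1 was higher, beside 18.0% of all genes called lower and 17.7% higher, and the median was -1.51. With the length offset the median was -0.86 and 75 were lower (17.3% of all genes). Cox6a2 was at 530, 816 and 1239 CPM in PV and at 43.9, 44.0 and 28.1 CPM in SST (-4.72 ± 0.29, adjusted p = 7.95e-09 by edgeR). Cox8b differed by -6.03 ± 0.55, but it was kept only because of its level in PV libraries, and the SST home cage libraries held 4 to 9 counts of it. The 1 subunit that was higher in SST was Ndufs5 (1.37 ± 0.21, adjusted p = 0.000127), described below.

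Promoters of 66 of the 83 subunits were found in RefSeq (GRCm38.p6), each as 300 bases from 250 before to 50 after the start, and were searched on both strands for 6 motifs of factors known at respiratory genes. The NRF1 motif (GCGC, any base, then TGCGC) was in 25.8% of them, against 5.2% of all 27025 promoters and 7.2% of 17492 promoters of protein-coding genes. The ETS core CCGGAAG, bound by GABPA among others, was in 24.2% (9.9% and 12.9%), and the YY1 motif AAGATGGCG in 10.6% (1.6% and 2.1%). The SP1 box GGGCGG (39.4%, against 38.2% and 49.2%) and CCAAT (42.4%, against 41.1% and 42.3%) were close to the share in all promoters. The ERR element TCAAGGTCA, read by Esrra and Esrrg, was in 2 promoters (3.0%, against 0.5% and 0.4%). Such matches describe the letters and not binding. The 100 bases before a RefSeq start are shown for 4 subunits, chosen for holding a match. In each complex the choice was the subunit with the smallest p in SST against PV saline among eligible windows. A window needed an NRF1, ETS or YY1 match and at most 30 bases in annotated exons. Complexes II and V gave none, and Ndufs5 was added. Each is given 5′ to 3′ on the gene's strand. Only matches to the NRF1, ETS and YY1 motifs are in capitals, and any SP1, CCAAT or ERR match is not marked. In Ndufs5, Uqcrh and Cox6a1 the match reads as the motif on the opposite strand. NRF1 is marked in Ndufa11 (chr17:56717662-56717761, plus strand) and Ndufs5 (chr4:123718187-123718286, minus strand). The ETS core is marked in Uqcrh (chr4:116075071-116075170, minus strand) and Cox6a1 (chr5:115348959-115349058, minus strand).
Ndufa11: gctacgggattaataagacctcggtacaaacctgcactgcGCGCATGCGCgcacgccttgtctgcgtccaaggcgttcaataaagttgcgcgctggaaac
Ndufs5: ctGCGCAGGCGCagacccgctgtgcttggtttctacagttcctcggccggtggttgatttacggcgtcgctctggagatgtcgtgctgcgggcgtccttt
Uqcrh: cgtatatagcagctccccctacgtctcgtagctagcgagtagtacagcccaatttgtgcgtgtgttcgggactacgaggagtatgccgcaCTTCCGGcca
Cox6a1: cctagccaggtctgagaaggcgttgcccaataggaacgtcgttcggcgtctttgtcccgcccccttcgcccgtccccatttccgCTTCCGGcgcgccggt

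After CFC, most subunits had lower values in PV libraries, but the main test called none. Of 80 subunits, 76 were lower in value, with a median of -0.69 against 0.02 over all genes, and edgeR called 0 of 80, as it called 0% of all 15150 genes in either direction. At an unadjusted p under 0.05 there were 68 of 80 subunits, against 18.7% of all genes. All 3 CFC libraries were below all 3 home cage libraries for 63 subunits, against 11.4% of all genes, and above them for 1 (13.6% of all genes). DESeq2 called 55 subunits lower (3.24% of all genes), limma voom called 0, and edgeR without a filter on low counts called 53 (1.79% of all genes).

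These values rest in part on single home cage libraries. In the library of home cage replicate 3, the subunits made up the largest share of counts of the 9, and with 10096035 counts it was the shallowest. Without replicate 3 the median of the subunits was -0.43 and 0 were called. Without home cage replicate 1 it was -0.86, and 59 were called lower (4.73% of all genes). Totals in batch 3 differed by 2.70 times between the highest and the lowest library, while the summed counts of the subunits differed by 1.68 times, from 826066 to 1388919. For Cox6a2 the deposited counts ran from 9927 to 13931 in all 9 libraries, and the levels of 530, 816 and 1239 CPM in home cage and 549, 424 and 466 CPM after CFC overlapped (-0.88 ± 0.26, adjusted p = 0.186 by edgeR). The rRNA gene CT010467.1 took 1.39%, 2.45% and 4.60% of counts in home cage libraries and 1.09% to 1.49% after CFC. The part of depth and rRNA in the result was not tested.

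By complex, the medians after CFC were -0.68 for I, -0.36 for II, -0.78 for III, -0.81 for IV and -0.56 for V. None of the subunits named here passed the edgeR test, and adjusted p was 0.186 for each unless given. In complex I, Ndufa1, a small membrane subunit needed for assembly, was at 400, 611 and 823 CPM in home cage and at 324, 316 and 320 CPM after CFC (-0.97 ± 0.23). Ndufs1 was the 1 subunit with all CFC libraries higher, at 385, 399 and 363 CPM against 358, 326 and 213 CPM (0.33 ± 0.16, adjusted p = 0.296). Sdha had a similar positive value (0.35 ± 0.16, adjusted p = 0.263), while Sdhc, a membrane anchor of complex II, had a negative one (-0.54 ± 0.17).

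In complex III, Uqcr11 was at 443, 656 and 850 CPM in home cage and at 372, 348 and 368 CPM after CFC (-0.87 ± 0.21), and Uqcrc1 had a value of 0.17 ± 0.16 (adjusted p = 0.579). In complex IV all 14 subunits were lower in value. Cox6b1, which links the complex IV monomers, was at 1463, 2161 and 2778 CPM in home cage and at 1323, 1107 and 1210 CPM after CFC (-0.85 ± 0.22). The rare forms Cox7a1 (-1.47 ± 0.46) and Cox8b (-1.30 ± 0.42) had the largest differences among those of complex IV. In complex V, Atp5e, the epsilon subunit, was at 338, 526 and 953 CPM in home cage and at 285, 262 and 302 CPM after CFC (-1.13 ± 0.31). The long transcripts Atp5a1 (-0.06 ± 0.12, adjusted p = 0.821) and Atp5b (0.07 ± 0.13, adjusted p = 0.795) stayed near 0.

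**Figure D3:**
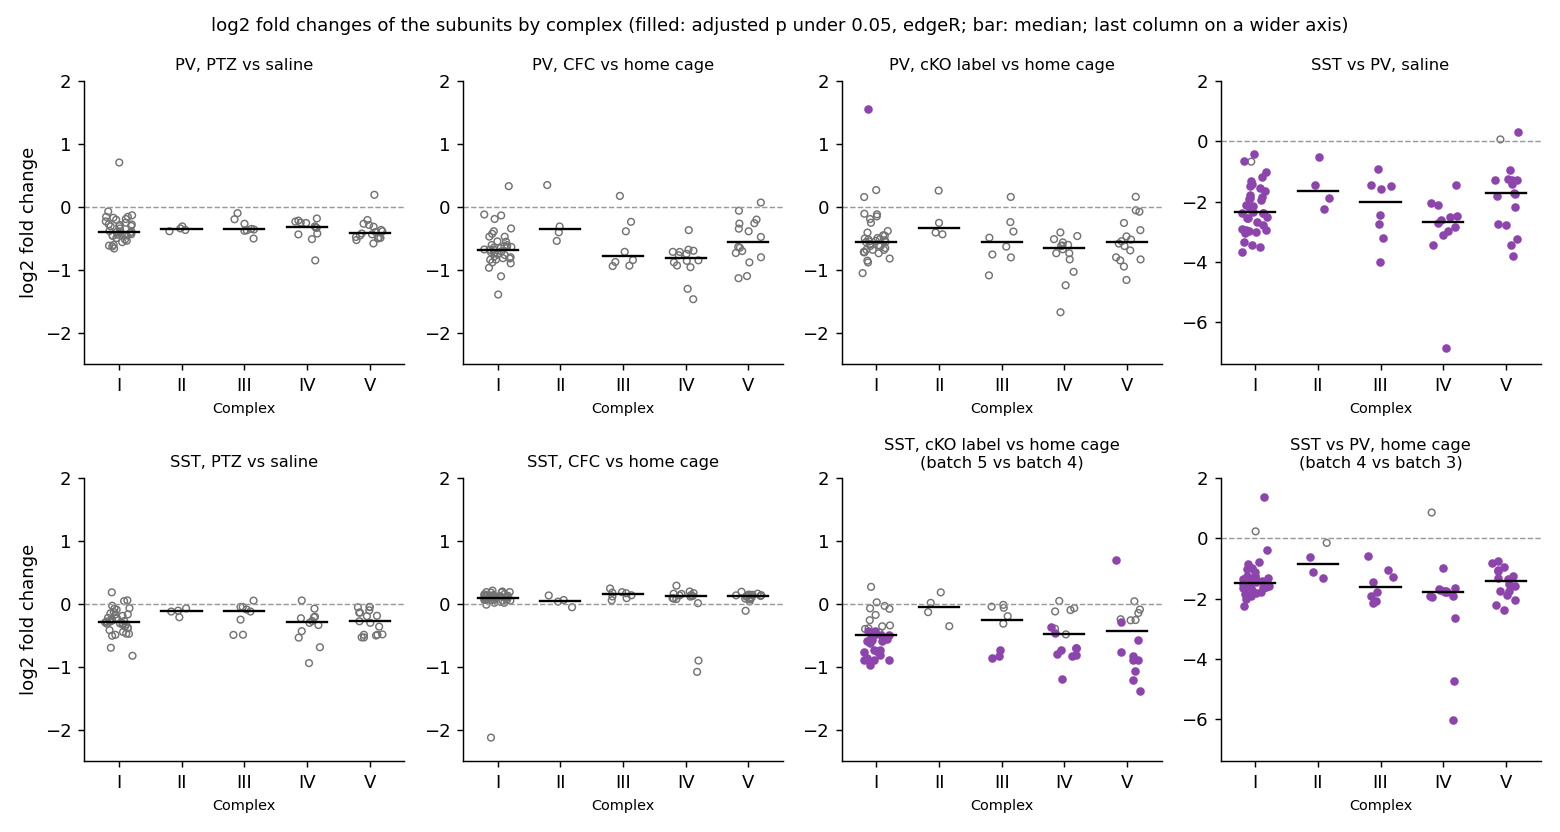
Log2 fold change of each subunit (vertical axis) by complex (horizontal axis) in 8 comparisons. Each point is a subunit, filled where the edgeR adjusted p is under 0.05, and bars are medians of a complex. The panels in the last column have a wider axis. Subunits lie below 0 in nearly all of the SST against PV panels, below 0 but unfilled after CFC in PV, and near 0 after CFC in SST.

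The size of the difference followed transcript length. Across the 80 subunits, Spearman's rho between the log2 value and length was 0.783 in the PV CFC comparison, a description over genes that share the same libraries. All 35 subunits under 700 bases were lower in value (median -0.84), but so were 87.3% of all 733 genes of that length (median -0.67). The 16 subunits of 1500 bases or more had a median of -0.20, with 12 lower in value, and all genes of that length a median of 0.13. These 16 include Atp5g1, Ndufb2 and Ndufab1 (-0.70, -0.64 and -0.47), whose median over annotated transcripts is 2413 to 2675.5 bases. With the length offset the subunits' median was -0.16, with 71 of 80 lower in value and 0 called. Cytosolic ribosomal proteins, which are also short, had a median of -0.66, with 80 of 81 lower in value and 0 called.

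**Figure D4:**
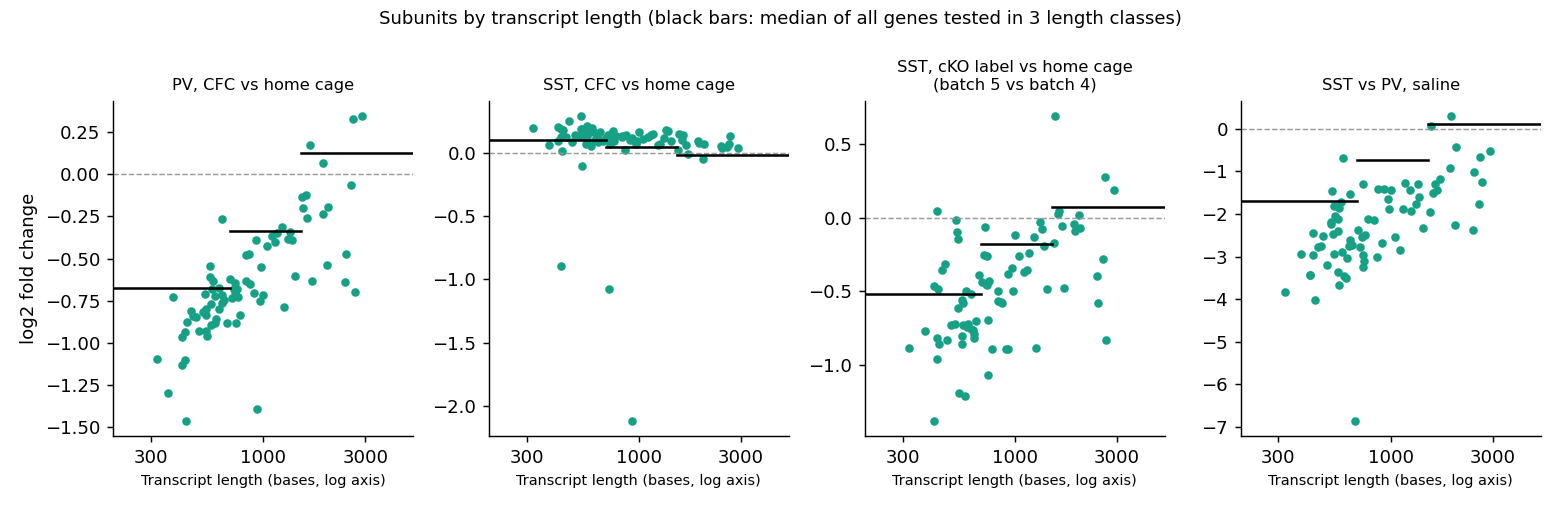
Log2 fold change of each subunit (vertical axis, a separate scale in each panel) against its transcript length in bases (log axis) in 4 comparisons. Points are subunits, and black bars are medians of all genes tested under 700 bases, from 700 to under 1500 and from 1500 up. Both subunits and other genes of short length lie lower than long ones after CFC in PV, under the SST cKO label and in SST against PV, but not after CFC in SST.

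In SST libraries CFC left the subunits near their home cage level. Of 81 tested, 75 were higher in value, the median was 0.12, and edgeR called 0, beside 0.0259% of all 15453 genes called higher and 0% lower. There were 2 subunits with an unadjusted p under 0.05, against 6.67% of all genes, and DESeq2 and limma voom also called 0. For no subunit did the groups stand apart (4.79% of all genes had all CFC libraries higher and 5.7% all lower). Cox4i1 was at 1300, 1154 and 1015 CPM in home cage and at 1331, 1358 and 1206 CPM after CFC (0.17 ± 0.09, adjusted p = 0.777 by edgeR). Those with the smallest p were Uqcrb, which helps to bind ubiquinone (0.19 ± 0.08), and Cox7c (0.29 ± 0.13), both with an adjusted p of 0.743. The median was 0.25 without home cage replicate 1 and 0.04 without home cage replicate 3.

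The most negative values after CFC in SST were those of Ndufa4l2 (-2.12 ± 1.33) and Cox4i2 (-1.08 ± 1.12), which are known from mural cells of blood vessels. Ndufa4l2 was at 0.401, 3.08 and 1.97 CPM in home cage and at 0, 0.582 and 0.642 CPM after CFC, and neither gene passed. None of these markers was at 0 in every library. The 12 mural markers summed to 90.0 to 352 CPM in the home cage libraries and to 32.8 to 49.5 CPM after CFC, and the 8 endothelial markers to 78.5 to 563 and 46.6 to 65.2 CPM. The part of vessel cells in these 2 values was not tested.

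The difference between the responses to CFC, SST minus PV, was tested in a contrast over both tables. Its median was 0.85 over 81 subunits, with 76 higher in value and 68 at an unadjusted p under 0.05 (15.2% of all genes), but edgeR called 0 subunits and 0% of all genes. DESeq2 called 45 higher (1.7% of all genes), limma voom 0, and edgeR without the low-count filter 47 (1.14%). The smallest p was that of Uqcrb (0.96 ± 0.23, adjusted p = 0.210 by edgeR). Without PV home cage replicate 1 the count was 61 (3.72% of all genes) and the median 1.05, and with the length offset the median was 0.27 with 0 called.

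The PV libraries labelled Nr4a1 cKO shared their 3 home cage controls with the CFC group, so both comparisons share whatever sets those libraries apart. Of 80 subunits, edgeR called 1 higher (0.099% of all genes) and 0 lower (0.0396% of all genes), 74 were lower in value and the median was -0.56. The medians of complexes I to V were -0.55, -0.33, -0.56, -0.65 and -0.56. An unadjusted p under 0.05 was found for 62 subunits and for 17.8% of all genes. All libraries labelled Nr4a1 cKO were below all home cage libraries for 22 subunits, against 9.02% of all genes. DESeq2 called 28 lower (2.65% of all genes), limma voom 0, and edgeR without the low-count filter 44 (1.76%). Without home cage replicate 1 there were 52 called lower (4.05% of all genes), and without home cage replicate 3 the median was -0.34. With the length offset it was -0.13.

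Uqcr10, a small subunit of complex III, had the smallest p of that complex: it was at 580, 997 and 1293 CPM in home cage and at 337, 481 and 564 CPM under the label (-1.09 ± 0.26, adjusted p = 0.128 by edgeR). Cox8b was at 14.2, 15.3 and 35.6 CPM in home cage and at 3.73, 6.30 and 10.8 CPM under the label (-1.67 ± 0.42, adjusted p = 0.133). Atp5d, the delta subunit in the synthase's central stalk, had -0.58 ± 0.14 (adjusted p = 0.132). Ndufs1 (0.27 ± 0.16), Sdha (0.26 ± 0.16) and Atp5b (0.16 ± 0.13) again had positive values, with adjusted p of 0.396, 0.397 and 0.512.

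The subunit called higher was Ndufs5, an accessory subunit of complex I that sits on the side of the intermembrane space (chromosome 4, GRCm38 positions 123712710 to 123718202, minus strand, with the promoter printed above). It was at 23.9, 29.5 and 45.6 CPM in home cage and 21, 19.8 and 20.4 CPM after CFC, and at 74.9, 110 and 112 CPM under the Nr4a1 cKO label. The labelled libraries were above all 6 others, and the CFC libraries were below home cage (-0.72 ± 0.24, adjusted p = 0.186). The difference from home cage was 1.56 ± 0.24 (edgeR adjusted p = 0.0231). That from CFC was 2.28 ± 0.24 in size, CFC being the lower (adjusted p = 0.00245), and there Ndufs5 was the 1 subunit called lower (0.099% of all genes) with 0 called higher (0.033%). In deposited counts, the home cage and CFC libraries held 432 to 495 reads of Ndufs5 and the labelled libraries 2125 to 2639.

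Against home cage the call of Ndufs5 was lost without home cage replicate 2 (adjusted p = 0.177), without labelled replicate 2 (0.0693) or 3 (0.0825) and with only the compared groups in the fit (0.108), with log2 values of 1.48, 1.48, 1.47 and 1.55 in that order. Pvalb was high in labelled replicates 1 and 2 and not in replicate 3, and Ndufs5 was high in all 3. RefSeq lists a transcribed pseudogene of Ndufs5, so its counts may hold or miss reads of that copy, and its level is uncertain.

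**Figure D5:**
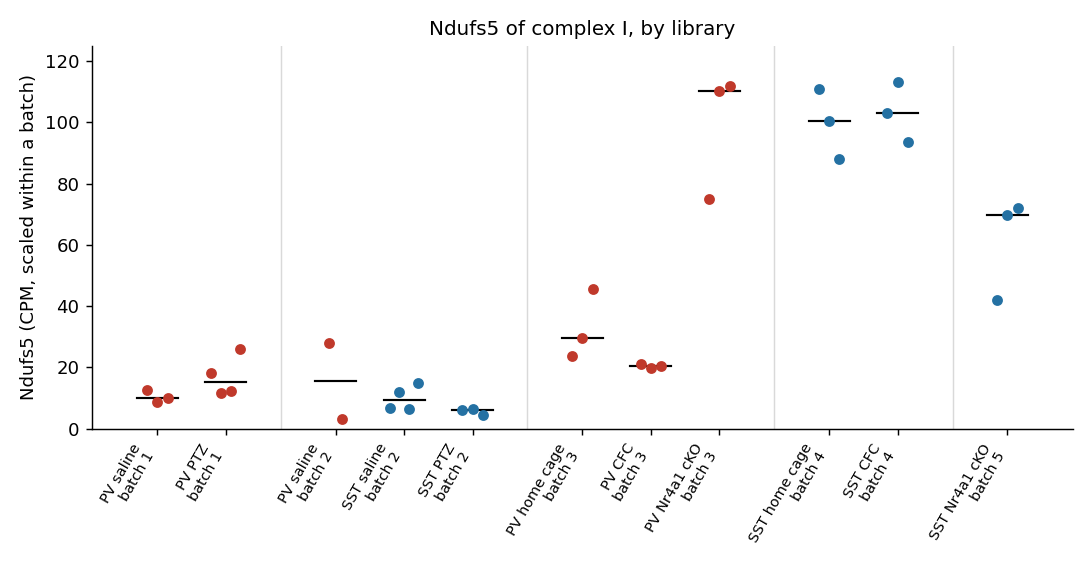
Level of Ndufs5 (CPM after TMM scaling within a batch) by group. Each point is a library, red for PV and blue for SST, and bars are group medians. In batch 3 the libraries labelled Nr4a1 cKO lie at 74.9 to 112 CPM and the other PV libraries at 19.8 to 45.6 CPM, while SST libraries of batch 4 lie at 87.9 to 113 CPM.

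The SST libraries labelled Nr4a1 cKO were the only ones in batch 5 and were compared with SST home cage libraries of batch 4, so batch and genotype cannot be told apart. Of 81 subunits, 47 were lower and 1 higher under the label, beside 4.59% of all genes called lower and 3.51% higher, and the median was -0.48. All labelled libraries were below all home cage libraries for 60 subunits, against 14.9% of all genes. With the length offset, 19 subunits were lower (3.53% of all genes) and 3 higher (2.75%), and the median was -0.12. Subunit levels given below for this comparison are CPM scaled over both tables.

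Complex I had 26 of 38 subunits lower, complex II 0 of 4, complex III 3 of 8, complex IV 9 of 15 and complex V 9 of 16. Cox8a, the common form of subunit VIII, was at 759, 688 and 652 CPM in home cage and at 316, 295 and 309 CPM under the label (-1.19 ± 0.08, edgeR adjusted p = 9.43e-05). Atp5e was at 189, 161 and 120 CPM in home cage and at 68.1, 53.6 and 58.8 CPM under the label (-1.38 ± 0.16, adjusted p = 0.00122). Atp5g2, a minor gene for subunit c, fell by 1.21 ± 0.15, while Atp5g3, another gene for it, did not pass (-0.25 ± 0.11, adjusted p = 0.222).

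In complex I, Ndufa3 (-0.96 ± 0.11), Ndufb11 (-0.89 ± 0.12), Ndufa13 (-0.88 ± 0.10) and Ndufs6 (-0.86 ± 0.09), all accessory subunits, were lower with an adjusted p from 0.000641 to 0.00174. The core subunits Ndufs1 (0.27 ± 0.10) and Ndufv1 (-0.17 ± 0.10) did not pass. Sdha (0.19 ± 0.09) and Sdhb (-0.35 ± 0.10) of complex II did not pass either. Uqcr11 was lower (-0.86 ± 0.10), a call lost with the length offset (-0.25, adjusted p = 0.0654), and Uqcrc1 was not called (-0.06 ± 0.09). Atp5s was the 1 subunit that was higher, at 44.3, 47.2 and 55.6 CPM against 28.9, 33.0 and 29.1 CPM (0.69 ± 0.14, adjusted p = 0.0154), a call lost without labelled replicate 2 (adjusted p = 0.0596) or 3 (0.0836).

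Ndufs5, which was higher under the Nr4a1 cKO label in PV, was lower under it in SST. It was at 113, 101 and 88.3 CPM in SST home cage libraries and at 40.2, 68.9 and 71.3 CPM in the labelled libraries (-0.75 ± 0.19, edgeR adjusted p = 0.0420), labelled replicate 1 being the lowest. The call was lost without home cage replicate 1 (adjusted p = 0.129) or 2 (0.0960), without labelled replicate 2 (0.0829) or 3 (0.0652), with the compared groups only (0.0907), with the replicate block (-0.77, adjusted p = 0.0712) and with the length offset (-0.27, adjusted p = 0.470). Whether the PV and SST differences of Ndufs5 differ from each other was not tested.

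Other lists are to be read against the 4.59% of all genes called lower and 3.51% called higher. Of 81 cytosolic ribosomal proteins 69 were lower under the label (median -0.77), of 78 mitochondrial ribosomal proteins 26 (median -0.29), and all 7 of the mitochondrially encoded subunits tested (median -1.83). Of 46 assembly factors 4 were lower and 3 higher (median -0.06). In CPM scaled within batch 5, labelled replicate 1 held endothelial markers at 1271 and mural markers at 562. The other labelled libraries held these markers at 41.5 to 46.1 and 26.1 to 26.4 CPM. Their part in the result was not tested. Without that replicate the count of subunits called lower was 40.

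PTZ, which excites neurons broadly, left no subunit past the threshold in either line. In PV libraries of batch 1, 76 of 78 subunits were lower in value than in saline and the median was -0.37, against -0.01 over all genes. EdgeR called 0 subunits, beside 0.0294% of 13595 genes called higher and 0% lower, and DESeq2 and limma voom also called 0. An unadjusted p under 0.05 was found for 3 subunits, against 13.8% of all genes, and 2 subunits had all PTZ libraries below all saline libraries, against 6.24% of all genes. The median was -0.61 without PTZ replicate 4 and -0.23 without PTZ replicate 3.

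Complex medians after PTZ in PV ran from -0.32 (IV) to -0.42 (V). The smallest p was that of Ndufa9, an accessory subunit of the matrix arm of complex I, at 89.1, 138 and 116 CPM in saline and at 82.2, 58.7, 65.1 and 84.5 CPM after PTZ (-0.66 ± 0.21, edgeR adjusted p = 0.304). These groups did not overlap. Cox6a2 had the most negative value, at 18.8, 15.4 and 20.6 CPM in saline and at 11.5, 4.33, 8.37 and 16.4 CPM after PTZ, which overlap (-0.85 ± 0.38, adjusted p = 0.358). Ndufs5 had the most positive, at 12.7, 8.61 and 10.1 CPM in saline and at 18.2, 11.6, 12.4 and 26.1 CPM after PTZ (0.71 ± 0.32).

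The 6 PV markers summed to 2333 to 3067 CPM in saline and to 672 to 2057 CPM after PTZ, without overlap, while Pvalb itself was higher in each PTZ library than in each saline library, at the levels given above. The 8 microglia markers summed to 25.5 to 89.7 CPM in saline and 48.4 to 343 CPM after PTZ, and the 9 markers of oligodendrocytes to 838 to 2250 and 600 to 3468 CPM, and both of these overlapped. The part of other cells in the lower subunit values was not tested. Cytosolic ribosomal proteins had a median of 0.04 in this comparison and mitochondrial ribosomal proteins one of -0.31, with 0 called in each. Genes of the tricarboxylic acid cycle had a median of -0.32 and assembly factors one of -0.27, again with 0 called.

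In SST libraries of batch 2, 73 of 78 subunits were lower in value after PTZ and the median was -0.25. EdgeR called 0, beside 0.144% of 11784 genes called higher and 0% lower, and DESeq2 and limma voom called 0. An unadjusted p under 0.05 was found for 6 subunits, against 4.34% of all genes, and 2 had all PTZ libraries lower, against 5.84% of all genes. Those 6 included Atp5d (-0.53 ± 0.19) of complex V, which had the smallest p. Another was Atp5sl (-0.50 ± 0.22), which is placed under complex V by its symbol alone. The other 4 were Cox4i1 (-0.53 ± 0.22), Cox6a1 (-0.43 ± 0.19), Cox6a2 (-0.94 ± 0.42) and Cox6b1 (-0.69 ± 0.28) of complex IV. Each of the 6 had an adjusted p of 0.989 by edgeR. Cox6a2 is near the floor here, with 27, 9, 9 and 14 counts in saline and 9, 5 and 11 after PTZ, and was kept in this table only through PV libraries. Cox4i1 was at 63.8, 39.5, 35.7 and 49.8 CPM in saline and at 35.7, 30.0 and 32.2 CPM after PTZ. Saline replicate 1 was the highest of these, and without it the median of the subunits was -0.04. With the length offset it was -0.03, with 44 of 77 subunits lower in value.

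The difference between the responses to PTZ, SST minus PV, had a median of 0.08 over 78 subunits. EdgeR called 0 of them and 0% of all genes, and DESeq2 and limma voom called 0 subunits. An unadjusted p under 0.05 was found for Ndufa9 (0.67 ± 0.25) and Ndufs5 (-1.57 ± 0.68), against 5.13% of all genes, each with an adjusted p of 0.820 by edgeR. The median ran from -0.07 without PV PTZ replicate 3 to 0.35 without PV PTZ replicate 4, so its direction rests on single libraries.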

How the data were processed

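The authors deposited 5 tables, 1 for each batch, of 34 libraries in 11 groups. Batch 1 holds estimated counts that the authors deposited with decimals (11.3% of values not whole), which were rounded here, and batches 2 to 5 hold whole-number counts as deposited by the authors. Reads were trimmed with cutadapt 1.18, aligned with STAR 2.5.2a and counted with HTSeq 0.11.0, per the submitters' processing notes, which also name DESeq2, mm10 and GRCm39. Which build and counter made which table, and the strand setting, are not given in the sources used here. Genes that share reads with a copy or overlap another gene may therefore be counted differently between tables.

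Each comparison was fitted over all genes of its table, or of both tables where it spans 2, with edgeR 4.0.16 in R 4.3.3 (TMM scaling, filterByExpr, robust quasi-likelihood test, Benjamini-Hochberg adjustment), all groups of the table sharing 1 estimate of spread. The SST CFC fit also held the SST libraries of batch 5. SE is the log2 fold change divided by the root of its F. Alternatives were DESeq2 1.42.0, limma 3.58.1 (voom), RLE, upper quartile and library-total scaling, no filter on low counts, a filter of 1 CPM in 2 libraries, the compared groups only, a replicate block, each library left out, and an offset for each library's trend on transcript length. Length is the median over a gene's GENCODE M21 basic transcripts (GRCm38). It may differ from the length of the transcripts in these cells, which limits levels per kb, length classes and the offset. The edgeR script was tested on simulated counts. Of 37 replicate pairs, none were identical.

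The subunits and the other gene lists were chosen with earlier results of these data known. Subunits named in the text were mostly taken from core subunits, paralogue families and called subunits (the 10 with the smallest p where more were called). Others had the smallest p in a complex, or were among the 2 most negative and 2 most positive values in a comparison. Not every subunit that meets these terms is named, so the named ones are a choice. Sequences come from RefSeq (GRCm38.p6).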

Additional observations from a re-analysis of the deposited data

Results flagged for a closer look

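Of 56 sets of levels in groups of 4 libraries, 2 held a library far from the others, and chance gives about 1 in 20. Atp5g2 was at 33.7 CPM in PV PTZ replicate 4 of batch 1, against 12.9, 13.4 and 14.6 CPM in the other PTZ libraries. Atp5b was at 2910 CPM in SST saline replicate 4 of batch 2, against 2626, 2630 and 2596 CPM, a gap that is small beside its level.

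Ndufs5 moved in opposite directions under the Nr4a1 cKO label, without overlap between the groups in either line: its log2 value was 1.56 in PV and -0.745 in SST. The difference between these was not tested, and the SST value compares batch 5 with batch 4.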

How the results depend on the processing

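The libraries' number and the batches limit these results. Both PV saline libraries of batch 2 are shallow, and the SST libraries labelled Nr4a1 cKO share no batch with a control. Under the alternatives, 360 counts of called subunits stayed within 1.5 times and 24 did not, and 184 medians stayed within the spread between replicates and 8 did not. DESeq2 called 55 subunits lower after CFC in PV, 28 lower under the PV Nr4a1 cKO label and 45 higher in the difference between the CFC responses. Without a filter on low counts these were 53, 44 and 47. With the length offset the medians were -0.16 (PV CFC), -0.13 (PV Nr4a1 cKO), -0.12 (SST Nr4a1 cKO, with 19 called lower and 3 higher), -1.10 (SST against PV saline), -0.86 (SST against PV home cage) and 0.27 (difference of CFC responses). Library totals as the only scaling gave 2 subunits called higher under the SST label. With the compared groups only, 0 were called higher under the PV label and in SST against PV saline. The cause of these shifts was not tested.

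With each library left out, medians ran from -0.61 to -0.23 (PV PTZ), -0.35 to -0.04 (SST PTZ), -0.86 to -0.43 (PV CFC), 0.04 to 0.25 (SST CFC), -0.72 to -0.34 (PV Nr4a1 cKO), -0.56 to -0.35 (SST Nr4a1 cKO), -2.38 to -2.09 (SST against PV saline), -1.73 to -1.29 (SST against PV home cage), 0.61 to 1.05 (difference of CFC responses), -0.07 to 0.35 (difference of PTZ responses) and -0.21 to 0.0094 (PV CFC against PV Nr4a1 cKO). Counts called lower ran from 0 to 59 (PV CFC, 59 without home cage replicate 1), 0 to 52 (PV Nr4a1 cKO, 52 without home cage replicate 1), 32 to 51 (SST Nr4a1 cKO), 72 to 75 (SST against PV saline) and 75 to 77 (home cage). Counts called higher ran from 0 to 61 (difference of CFC responses, 61 without PV home cage replicate 1) and from 0 to 1 under both Nr4a1 cKO labels and in SST against PV saline, where Ndufs5 reversed to 1.63 (adjusted p = 0.0407, edgeR) without PV saline replicate 1 and was -1.47 without PV saline replicate 2.

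The replicate numbers gave no clear sign of pairing. Correlations of deviations between equal numbers ran from -0.435 to 0.545, and no comparison with 3 pairs had all above 0.1. Unequal numbers were not set beside them, so this cannot show that the samples are unpaired. With the replicate block, 0 subunits were called higher in SST against PV saline (median -2.24, 74 lower), and 39 lower under the SST Nr4a1 cKO label (median -0.47). Other medians were -0.29 (PV PTZ), -0.20 (SST PTZ), -0.64 (PV CFC), -0.55 (PV Nr4a1 cKO), 0.12 (SST CFC), -1.48 (home cage) and 0.81 (difference of CFC responses).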
